A study of Mus musculus with 10 samples.

Results

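Brown adipose tissue (BAT) turns fuel into heat, and 10 genes that give brown adipocytes this capacity were followed in BAT with and without adipocyte STAT5. The genes were chosen by name as thermogenic and brown fat identity genes, with earlier results of these data known. They were found by gene symbol among the 24454 genes of the count files. All 10 passed the filter on low counts, which left 13568 genes for testing. RNA was taken from BAT of C57BL/6N male mice, 2 months old and fed ad libitum, under basal conditions without cold or drug. The 5 control mice were littermates with floxed *Stat5* that lacked the Cre transgene, as the methods describe them (GEO's labels say wild type), and the 5 *Stat5* Adipoq mice had lost *Stat5a* and *Stat5b* wherever the Adipoq promoter drives Cre. That promoter is active in adipocytes, so endothelial, immune, nerve and stromal cells of the tissue keep both genes. Each mouse gave 1 library, with 8488129 to 19514904 counts on genes in control and 9401827 to 15686868 in *Stat5* Adipoq BAT. Levels are given as counts per 1000000 counts (CPM) after scaling between libraries, and in bulk tissue fewer cells of a type and less RNA per cell cannot be told apart.

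Sympathetic nerves release noradrenaline onto brown adipocytes, cAMP rises, and stored lipid is broken down into fatty acids that both fuel the mitochondria and activate UCP1. UCP1 lets protons re-enter the mitochondrial matrix without making ATP, so that respiration is released as heat. The same signal raises transcription of *Ucp1*, *Dio2* and *Ppargc1a*, while nuclear receptors, their coactivators and PRDM16 maintain the brown adipocyte programme, and STAT5 carries signals of growth hormone and other cytokines to the nucleus.

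The deletion was visible in every library. *Stat5a* was 110, 130, 92.6, 86.9 and 107 CPM in control replicates 1 to 5 and 20.7, 15.8, 16.2, 16.6 and 16.1 CPM in *Stat5* Adipoq replicates 1 to 5. *Stat5b* lay between 76.6 and 91.9 CPM in control and between 21.0 and 22.9 CPM in *Stat5* Adipoq BAT. Neither gene overlapped between the genotypes, and since 10.8% of the 50-base words of *Stat5a* and 11.8% of those of *Stat5b* also occur in another gene, some reads could not be assigned to a single gene.

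None of the 10 thermogenic identity genes passed an adjusted p of 0.05 in edgeR's quasi-likelihood test, in which 2.71% of all tested genes passed, 1.31% lower and 1.4% higher in *Stat5* Adipoq BAT. DESeq2's Wald test likewise called 0 of the 10, beside 4.86% of all tested genes. An unadjusted p below 0.05 was found for 2 of the 10 in edgeR, *Cidea* and *Ppara*, against 15.2% of all tested genes. The fold change was above 0 for 5 members and below 0 for 5, with a median log2 fold change of 0.011, beside -0.0028 over all tested genes. The median absolute log2 fold change was 0.219 in the members and 0.111 over all tested genes. For none of the members did the libraries of one genotype lie fully apart from those of the other, a separation seen in 4.39% of tested genes. These tests do not show that the genes were equally expressed, since the confidence limits of some of them are wide.

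**Figure D1:**
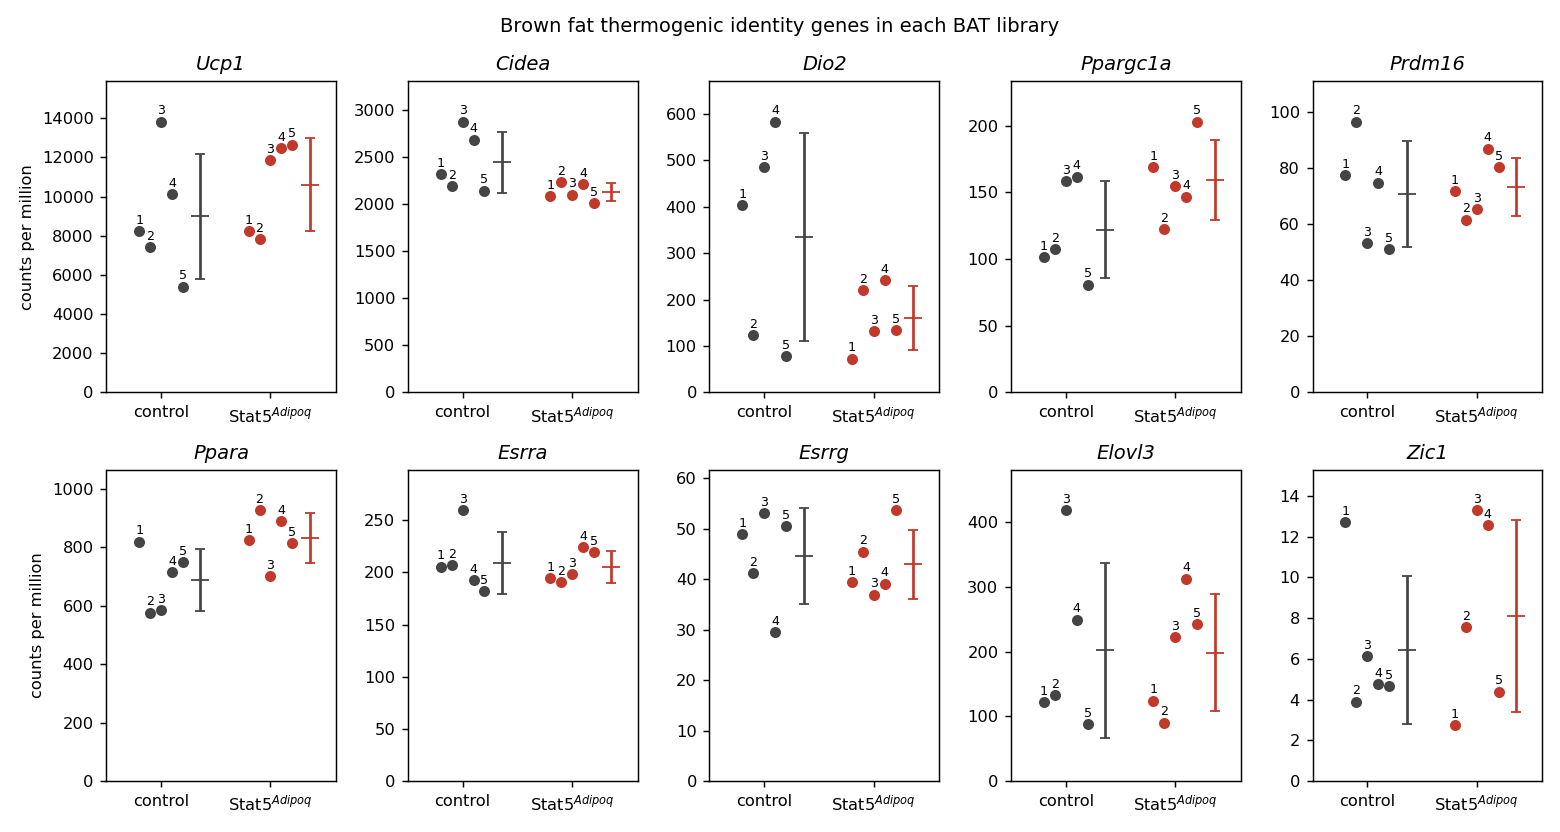
Expression of the 10 thermogenic identity genes in each BAT library, in CPM on linear axes that start at 0. Each point is 1 mouse with its replicate number, grey for control and red for *Stat5* Adipoq, and the bars give the mean and SD of 5 libraries; the genotypes overlap in every panel, and *Dio2* and *Elovl3* spread widely among controls.

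*Ucp1* encodes the uncoupling protein itself and lies at chr8:83290348-83298456 (GRCm38), with no exon shared with another annotated gene. It measured 8245, 7429, 13831, 10111 and 5402 CPM in control replicates 1 to 5 and 8234, 7843, 11866, 12498 and 12661 CPM in *Stat5* Adipoq replicates 1 to 5. Control replicate 3 held the highest value and control replicate 5 the lowest, and all 5 *Stat5* Adipoq libraries lay between these 2 controls. Control mice averaged 9004 ± 3184 CPM and *Stat5* Adipoq mice 10620.4 ± 2379 CPM (SD, n = 5 each). The log2 fold change was 0.24 and its 95% confidence limits were -0.25 and 0.72 (adjusted p = 0.69 from edgeR; exact permutation test, p = 0.33), which leaves room for anything from a ratio of 0.842 to one of 1.65. *Ucp1* alone took between 0.552% and 1.36% of all counts of a library, and the 10 members together between 0.902% and 1.83%. Counting error is therefore small for this gene, with at least 59130 counts in each library, and the width of the limits reflects the spread between mice. A *Ucp1* difference of up to 1.61-fold separated mice of the *Stat5* Adipoq genotype, and one of 2.56-fold separated controls. Without control replicate 3 the log2 fold change was 0.45 and again did not pass (adjusted p = 0.27 from edgeR), and without control replicate 5 it was 0.10.

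*Cidea* encodes a lipid droplet protein that is abundant in brown fat, where it acts in droplet enlargement and marks brown and beige adipocytes (chr18:67343564-67367794). It measured 2317, 2191, 2873, 2683 and 2142 CPM in control replicates 1 to 5 and 2080.2, 2229, 2100.4, 2213 and 2007 CPM in *Stat5* Adipoq replicates 1 to 5. All 5 *Stat5* Adipoq libraries lay below the control median and 3 of them lay below every control, although the ranges overlapped. Control mice averaged 2441 ± 321 CPM and *Stat5* Adipoq mice 2126 ± 93.4 CPM (SD, n = 5 each), a ratio of 0.871. The log2 fold change of -0.20 had 95% limits of -0.38 and -0.020 that excluded 0, but it did not pass over all genes (adjusted p = 0.27 from edgeR; exact permutation test, p = 0.048). The higher control mean came mainly from control replicates 3 and 4, and without replicate 3 the log2 fold change was -0.13.

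*Dio2* encodes type 2 deiodinase, which converts thyroxine to the active hormone T3 inside the brown adipocyte and is strongly induced by cAMP (chr12:90724552-90739038). It measured 403, 123, 486, 583 and 78.6 CPM in control replicates 1 to 5, and 73.0, 221, 131, 241 and 134 CPM in *Stat5* Adipoq replicates 1 to 5. Controls had high values in replicates 1, 3 and 4, above every *Stat5* Adipoq library, and low values in replicates 2 and 5, which lay within the *Stat5* Adipoq range. Control mice averaged 335 ± 223 CPM and *Stat5* Adipoq mice 160.02 ± 69.5 CPM (SD, n = 5 each), a ratio of 0.478. The log2 fold change was -1.07 with limits of -2.14 and 0.014, and it did not pass (adjusted p = 0.34 from edgeR; exact permutation test, p = 0.25). Its point estimate was the farthest from 0 among the 10 members, and so was its variability: the SD of log2 CPM within genotypes was 1.04, larger than in 99.7% of the tested genes averaging at least 500 counts. The 7.42-fold range among controls exceeded the 3.30-fold range among *Stat5* Adipoq mice, a difference in spread that was not tested.

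Of the transcriptional regulators, *Ppargc1a* encodes the coactivator PGC-1α, a cAMP-induced driver of mitochondrial biogenesis (chr5:51454249-52115853). It measured 101, 107, 159, 162 and 80.9 CPM in control replicates 1 to 5 and 169, 122, 155, 147 and 203 CPM in *Stat5* Adipoq replicates 1 to 5. Every *Stat5* Adipoq library lay above the control median of 107 CPM, and replicates 1 and 5 lay above all controls, while control replicates 3 and 4 reached the middle of the *Stat5* Adipoq range. The log2 fold change was 0.38 with limits of -0.027 and 0.79 (adjusted p = 0.37 from edgeR; exact permutation test, p = 0.10). *Ppara*, at chr15:85734910-85806851, encodes the fatty acid-activated nuclear receptor PPARα, which controls genes of fatty acid oxidation. Its values were 819, 576, 585, 716 and 748 CPM in control replicates 1 to 5 and 823, 926, 700.3, 890 and 814 CPM in *Stat5* Adipoq replicates 1 to 5. *Stat5* Adipoq replicates 1, 2 and 4 exceeded every control, whereas replicate 3 lay below the control median. *Ppara* averaged 689 ± 106 and 830.4 ± 86.4 CPM in the 2 genotypes (SD, n = 5 each). Its log2 fold change of 0.27 had limits of 0.040 and 0.50 that excluded 0 without passing over all genes (adjusted p = 0.24 from edgeR; exact permutation test, p = 0.071).

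The other regulators differed little in their means. *Prdm16*, at chr4:154316122-154637360, encodes a zinc finger protein that specifies brown against muscle fate, and ranged from 51.0 to 96.4 CPM in control and from 61.5 to 86.8 CPM in *Stat5* Adipoq BAT. *Esrra* (chr19:6910977-6922048) encodes ERRα, a partner of PGC-1α on genes of oxidative metabolism, and ranged from 182 to 260 CPM and from 191 to 224 CPM. *Esrrg* (chr1:187608510-188214885), which encodes the related receptor ERRγ, ranged from 29.6 to 53.0 CPM and from 36.9 to 53.6 CPM. In all 3 genes the *Stat5* Adipoq range lay almost wholly within that of control. Their log2 fold changes were 0.049 with limits of -0.31 and 0.40 for *Prdm16*, -0.027 with limits of -0.22 and 0.17 for *Esrra* and -0.048 with limits of -0.38 and 0.28 for *Esrrg*. The limits for *Esrra* were the narrowest of the 3 and correspond to ratios between 0.856 and 1.12. With 1 library left out, the log2 fold change ranged from -0.048 to 0.19 for *Prdm16*, from -0.073 to 0.061 for *Esrra* and from -0.17 to 0.025 for *Esrrg*, so that none of these 3 has a settled direction.

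*Elovl3* encodes an enzyme that elongates saturated and monounsaturated very long chain fatty acids and is strongly induced in brown fat by cold (chr19:46131897-46135694). It measured 122, 133, 418, 249 and 88.2 CPM in control replicates 1 to 5 and 124, 90.4, 222, 313 and 242 CPM in *Stat5* Adipoq replicates 1 to 5. Control replicate 3 was highest and control replicate 5 lowest, as for *Ucp1*, and the other libraries of both genotypes mixed between them. Control mice averaged 202 ± 135 CPM and *Stat5* Adipoq mice 198 ± 90.3 CPM (SD, n = 5 each). The log2 fold change was -0.028 with limits of -0.95 and 0.89 (adjusted p = 0.99 from edgeR), so that neither a fall to a ratio of 0.519 nor a rise to 1.85 lay outside them. Its direction was not settled, since the log2 fold change was 0.41 without control replicate 3 (adjusted p = 0.64 from edgeR), also above 0 without control replicate 4 or *Stat5* Adipoq replicate 1 or 2, and -0.25 without *Stat5* Adipoq replicate 4.

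*Zic1* encodes a zinc finger transcription factor that marks the classical interscapular depot (chr9:91358058-91365768). It averaged 83.6 counts a library, the fewest of the 10, and ranged from 3.90 to 12.7 CPM in control and from 2.77 to 13.3 CPM in *Stat5* Adipoq BAT. High values occurred in control replicate 1 and in *Stat5* Adipoq replicates 3 and 4, and the other 7 libraries lay at or below 7.57 CPM. The log2 fold change was 0.33 (adjusted p = 0.79 from edgeR) and ran from 0.077 without *Stat5* Adipoq replicate 3 to 0.73 without control replicate 1, and with limits of -0.60 and 1.26 a change of moderate size was not detectable at this depth and spread.

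Levels can be compared between genes only per length, and were divided by the exon length of each gene in GENCODE. In control BAT *Ucp1* stood first with 5504 ± 1946 CPM per kb (SD, n = 5), followed by *Cidea* with 2189 ± 288 and *Ppara* with 179.5 ± 27.6 CPM per kb. *Elovl3* with 102 ± 68.4, *Dio2* with 57.5 ± 38.4 and *Esrra* with 47.7 ± 6.78 CPM per kb came next. *Ppargc1a* had 18.5 ± 5.50, *Prdm16* 7.56 ± 2.02, *Esrrg* 7.19 ± 1.53 and *Zic1* 1.13 ± 0.634 CPM per kb, so that the range from first to last was 4866-fold. *Ppara* and *Elovl3*, *Elovl3* and *Dio2*, *Dio2* and *Esrra*, and *Prdm16* and *Esrrg* were neighbours whose control libraries overlapped, and their order is not separated from the spread. The remaining neighbours did not overlap among the 5 controls. *Ucp3*, the paralogue of *Ucp1*, reached 89.5 CPM per kb in control, so that *Ucp1* exceeded it 61.5-fold. The lengths join all annotated exons of a gene and can exceed that of its main mRNA, which would lower its value here.

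The members varied together between mice in part. Correlations were taken over the 10 libraries after the mean of each genotype was removed, for all 45 pairs of members, and 29 of the 45 values of r were positive. A single pair, *Ucp1* and *Elovl3*, passed Benjamini-Hochberg adjustment over the 45 (r = 0.96, permutation p = 0.00041, adjusted p = 0.018; rho = 0.94, permutation p = 0.00087, adjusted p = 0.039). Without control replicates 3 and 5, the libraries farthest from the median of *Ucp1*, r was 0.95. Mice with more *Ucp1* mRNA than others of their genotype thus also had more *Elovl3* mRNA. An unadjusted permutation p below 0.05 was found for this pair and 5 others. *Cidea* and *Dio2* had r = 0.81 (permutation p = 0.037, adjusted p = 0.28) and rho = 0.83 (permutation p = 0.035, adjusted p = 0.31), and r of 0.78 without control replicates 3 and 4. *Ucp1* and *Ppargc1a* had r = 0.797 (permutation p = 0.015, adjusted p = 0.17) and rho = 0.76 (permutation p = 0.020, adjusted p = 0.29), falling to r = 0.59 without control replicates 3 and 5. *Ucp1* and *Esrra* had r = 0.82 (permutation p = 0.014, adjusted p = 0.17) and rho = 0.76 (permutation p = 0.025, adjusted p = 0.29), with r = 0.54 after removal of the same 2 controls. *Esrra* and *Elovl3* had r = 0.79 (permutation p = 0.0135, adjusted p = 0.17) and rho = 0.685 (permutation p = 0.046, adjusted p = 0.33), with r = 0.51 without control replicate 3 and *Stat5* Adipoq replicate 4. *Ppargc1a* and *Elovl3* had r = 0.78 (permutation p = 0.022, adjusted p = 0.20) and rho = 0.745 (permutation p = 0.026, adjusted p = 0.29), with r = 0.655 without control replicates 3 and 4. None of these 5 pairs passed the adjustment, and the labels name no batch within which the relations could be recomputed.

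**Figure D2:**
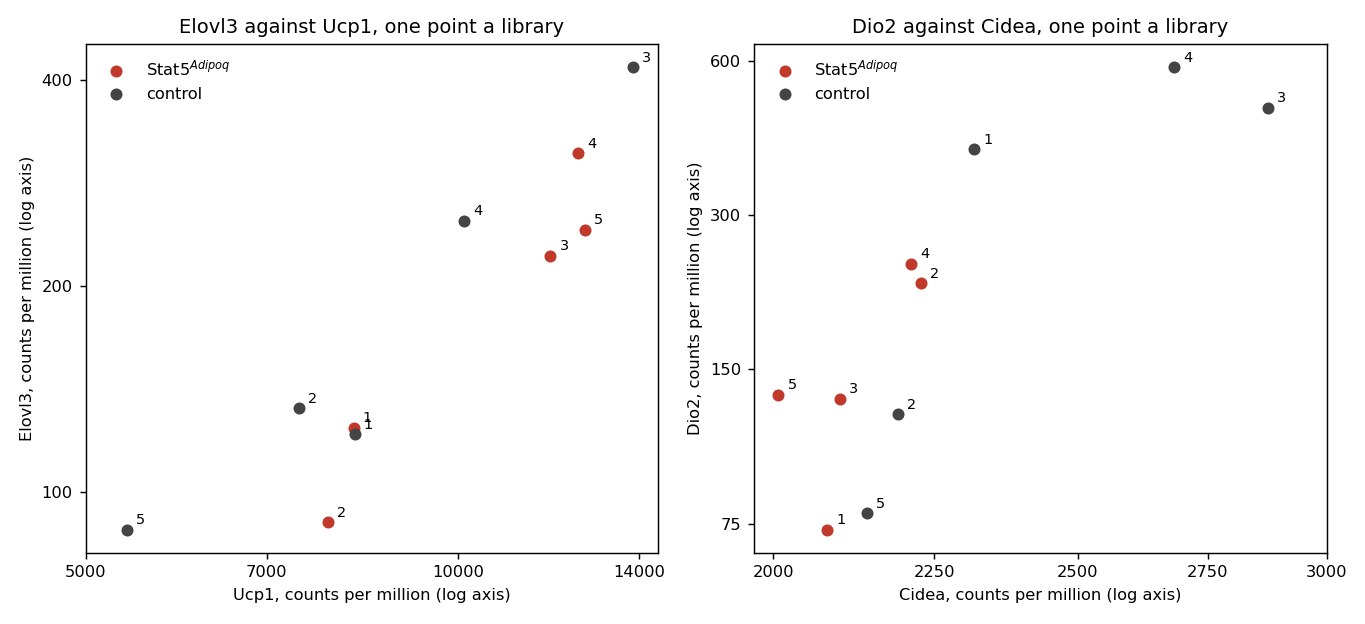
*Elovl3* against *Ucp1* and *Dio2* against *Cidea*, in CPM on log axes, with 1 point for each of the 10 libraries, grey for control and red for *Stat5* Adipoq, and the replicate number beside it. *Elovl3* rises with *Ucp1* in both genotypes, from 88.2 CPM in control replicate 5 to 418 CPM in control replicate 3, and the 3 highest *Dio2* values are those of controls.

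Outside the list, the genes whose log2 CPM followed *Ucp1* most closely over the 10 libraries, among 10151 compared, were *St3gal5* (r = 0.978, rho = 0.952), *Slc7a6* (r = 0.97, rho = 0.879) and *H13* (r = 0.968, rho = 0.952). *St3gal5* makes the ganglioside GM3, *Slc7a6* encodes an amino acid transporter and *H13* a signal peptide peptidase. Their r was 0.96, 0.959 and 0.955 without control replicates 3 and 5, and no p is given because they were picked as the highest of all. *St3gal5* measured 31.8, 28.7, 86.5, 46.8 and 20.6 CPM in control replicates 1 to 5 and 43.8, 33.5, 62.4, 68.6 and 64.7 CPM in *Stat5* Adipoq replicates 1 to 5. As with *Ucp1*, control replicates 3 and 5 were its extremes and the genotypes did not differ past the threshold (adjusted p = 0.69 from edgeR). Both traits are likely in a gene picked for its likeness to *Ucp1* over these same libraries. Genotype means were not removed here, unlike for the pairs of members.

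Single libraries shared their place across members. Control replicate 3 was the highest control for 5 members (*Ucp1*, *Cidea*, *Esrra*, *Esrrg* and *Elovl3*), and control replicate 5 was the lowest control for 7 (*Ucp1*, *Cidea*, *Dio2*, *Ppargc1a*, *Prdm16*, *Esrra* and *Elovl3*). Among *Stat5* Adipoq mice replicate 2 was lowest for 5 members and replicate 4 highest for 4. The same 2 control libraries carried the most skeletal muscle RNA. The summed level of the 14 skeletal muscle markers was 117, 62.0, 5243, 41.5 and 477 CPM in control replicates 1 to 5 and 108, 50.9, 104, 113 and 82.3 CPM in *Stat5* Adipoq replicates 1 to 5. All 14 were highest in control replicate 3, and *Myh4*, the most abundant, had 12442 counts there, 958 in control replicate 5 and at most 195 in any other library. *Myh1* and *Tnnt3* were at 0 in *Stat5* Adipoq replicate 2. None of the 14 was called by edgeR, although 12 had an unadjusted p below 0.05 there and 13 had fold changes below 0 (median log2 fold change -5.54), and DESeq2 called 5. *Ppargc1a*, *Ppara*, *Esrra* and *Esrrg* are also expressed in skeletal muscle. With a muscle score as a covariate no member passed the threshold, and the log2 fold change was 0.38 for *Ucp1*, -0.16 for *Cidea*, -1.13 for *Dio2*, 0.43 for *Ppargc1a*, 0.23 for *Ppara* and 0.29 for *Zic1*. The other 4 members changed sign under the covariate, to -0.085 for *Prdm16*, 0.069 for *Esrra*, 0.13 for *Esrrg* and 0.28 for *Elovl3*. Without control replicate 3 again no member passed.

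Other cells of the tissue were compared through their markers in the same way. *Kdr*, the most abundant of 6 endothelial markers, was 251 ± 14.7 CPM in control and 281 ± 34.9 CPM in *Stat5* Adipoq BAT (SD, n = 5 each), and none of the 6 was called. None of the 6 macrophage markers was called, with *Lyz2* at 47.2 and 47.0 CPM on average, nor any of the 6 fibroblast markers, with *Col3a1* at 625 and 543 CPM. Of the 6 Schwann cell markers none passed in edgeR although 5 had an unadjusted p below 0.05 and DESeq2 called 1, and the most abundant, *Mbp*, averaged 94.1 CPM in control and 70.7 CPM in *Stat5* Adipoq BAT. Of 5 tested lymphocyte markers *Cd4* was the most abundant at 1.91 and 1.10 CPM, and none was called. The 7 liver markers summed to 92.6 CPM in control replicate 3 and to between 1.32 and 6.47 CPM elsewhere, led by *Alb*, and none was called. In these 5 lists other than that of Schwann cells DESeq2 called 0, and an unadjusted p below 0.05 in edgeR was found for 2 endothelial, 1 macrophage, 0 fibroblast, 1 lymphocyte and 2 liver markers. All 6 endothelial fold changes lay above 0 (median log2 fold change 0.15), whereas 5 of 6 macrophage (median -0.13), 4 of 6 fibroblast (median -0.19), all 6 Schwann cell (median -0.80), 4 of 5 lymphocyte (median -0.65) and all 7 liver markers (median -2.86) lay below 0. The part of these cells in the values of the members was not tested.

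Adipocyte genes that are not particular to brown fat were also examined. Of 8 pan-adipocyte markers 1 was called, *Cfd*, the complement protease adipsin, which fell from 1386 ± 217 to 522 ± 157 CPM (SD, n = 5 each; log2 fold change -1.41, adjusted p = 0.0021 from edgeR). DESeq2 called 3 of the 8, an unadjusted p below 0.05 in edgeR was found for 3, and 7 of the 8 fold changes lay below 0. The most abundant, *Fabp4*, a fatty acid binding protein, averaged 8560 and 7681 CPM and was called by neither test. White or beige fat markers were low, with 8 of 13 below the count filter, and among the 5 tested *Retn*, which encodes the white fat hormone resistin, fell from 86.0 ± 11.7 to 29.7 ± 18.0 CPM (SD, n = 5 each; log2 fold change -1.53, adjusted p = 0.023 from edgeR). The call of *Retn* was lost without control replicate 1 or without *Stat5* Adipoq replicate 2, 3 or 4, with adjusted p up to 0.071, and DESeq2 called 2 of these 5 genes.

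Around the members, 128 other brown fat genes were listed by role and 116 were tested. Of these 13 passed in edgeR, 7 higher and 6 lower in *Stat5* Adipoq BAT, which is 11.2% beside the 2.71% of all tested genes, and DESeq2 called 16. The lists were chosen with earlier results of these data known, so the higher share cannot be read as an excess in brown fat genes. The median log2 fold change was -0.013 over the 116, beside -0.0028 over all genes. An unadjusted p below 0.05 in edgeR was found for 40 of the 116, beside 15.2% of all tested genes. The genotypes did not overlap in 14 of the 116, beside 4.39% of all tested genes. The count was 7 when control replicate 1, *Stat5* Adipoq replicate 4 or *Stat5* Adipoq replicate 5 was left out, 8 without control replicate 2 and 18 without control replicate 3. With the muscle score as a covariate it was 10, and *Ucp3*, *Nrip1*, *Cox7a1* and *Atp5b* then no longer passed, with adjusted p of 0.059, 0.081, 0.070 and 0.093 from edgeR, while *Fabp3*, a fatty acid binding protein, passed only just (adjusted p = 0.049, beside 0.21 without the covariate). *Fabp3* passed more clearly when control replicate 3 was left out instead (adjusted p = 0.0031 from edgeR).

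**Figure D3:**
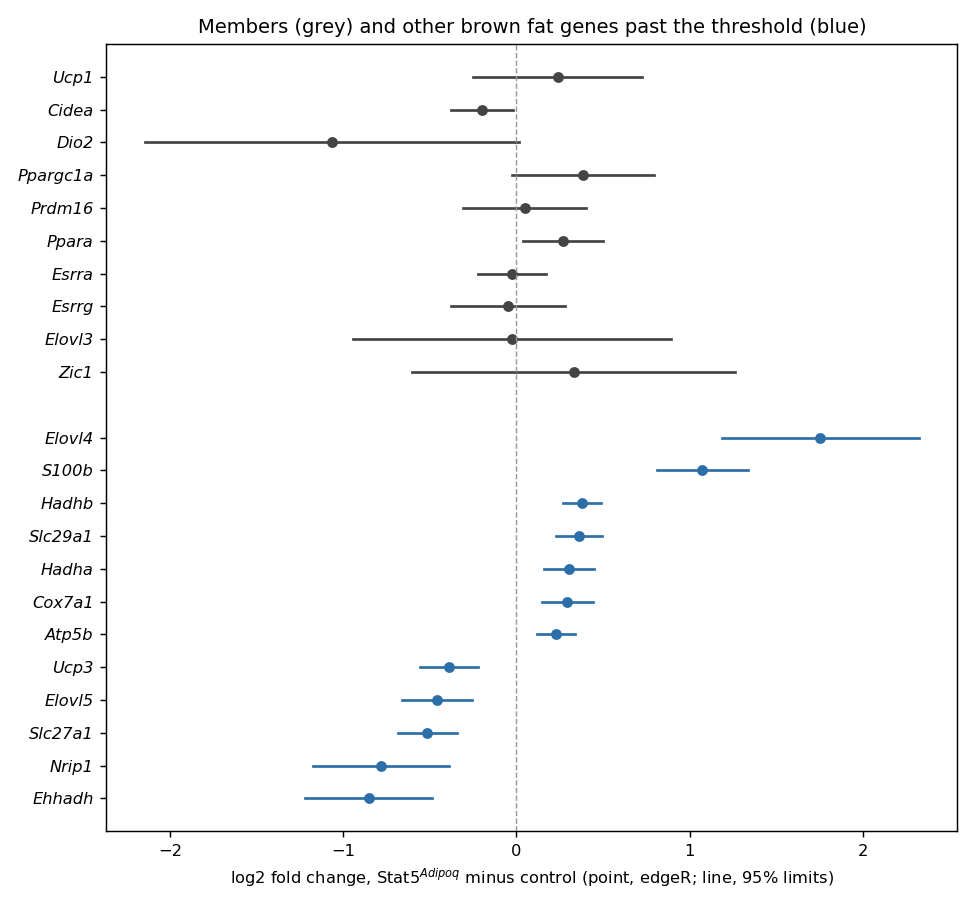
Log2 fold changes of the 10 members (grey) and of 12 other brown fat genes past the threshold (blue), *Stat5* Adipoq minus control, as points with 95% confidence limits as lines, and a dashed line at 0. The limits of *Dio2*, *Elovl3* and *Zic1* are the widest among the members, while the blue genes range from -0.85 for *Ehhadh* to 1.75 for *Elovl4*.

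Among 16 tested paralogues of the members 3 passed. *Ucp3*, an uncoupling protein relative found in brown fat and muscle, fell from 280.4 ± 14.1 to 214 ± 24.6 CPM (SD, n = 5 each). It measured 277, 287, 301, 273 and 265 CPM in control replicates 1 to 5 and 234, 188, 244, 210 and 195 CPM in *Stat5* Adipoq replicates 1 to 5. Every *Stat5* Adipoq value lay below every control (log2 fold change -0.39, limits -0.56 and -0.22, adjusted p = 0.020 from edgeR). The call of *Ucp3* was lost without control replicate 2 or without *Stat5* Adipoq replicate 4 or 5, where its adjusted p reached 0.062. In the elongase family *Elovl5*, which acts on polyunsaturated fatty acids, fell from 249 ± 29.9 to 181 ± 19.0 CPM (SD, n = 5 each; log2 fold change -0.46, adjusted p = 0.023 from edgeR). *Elovl4*, which makes very long chain fatty acids, rose from 0.759 ± 0.182 to 2.68 ± 0.773 CPM (SD, n = 5 each; log2 fold change 1.75, adjusted p = 0.0044 from edgeR), with only 20.5 counts a library on average. Neither elongase overlapped between the genotypes, and *Elovl5* lost its call in the absence of control replicate 1 or 2 or of *Stat5* Adipoq replicate 2 or 5, with adjusted p up to 0.067. *Ucp2*, *Ppargc1b*, *Ppard* and *Pparg* passed in neither edgeR nor DESeq2. Not all the other paralogues were flat, since DESeq2 called 4 of the 16. An unadjusted p below 0.05 in edgeR was found for 7 of the 16, beside 15.2% of all tested genes.

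Of 34 tested transcriptional regulators of brown fat 1 passed. *Nrip1*, which encodes the corepressor RIP140 that restrains *Ucp1* and oxidative genes in fat, fell from 19.9 ± 3.34 to 11.5 ± 3.36 CPM (SD, n = 5 each; log2 fold change -0.78, adjusted p = 0.039 from edgeR). Its libraries overlapped, since *Stat5* Adipoq replicate 1 with 17.1 CPM lay above control replicate 2 with 15.2 CPM, and the call stood after removal of *Stat5* Adipoq replicate 1 or of control replicate 2 or 3 but was lost without any of the other 7 libraries, with adjusted p up to 0.11. *Cebpa*, an adipogenic transcription factor and the most abundant of the list, was 664 ± 108 and 644 ± 38.3 CPM (SD, n = 5 each; adjusted p = 0.90 from edgeR). *Thra*, the thyroid hormone receptor α, was 149.9 ± 13.2 and 176 ± 8.99 CPM (SD, n = 5 each), without overlap between the genotypes, with an adjusted p of 0.10 from edgeR and 0.033 from DESeq2.

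Genes controlled by PPARs moved in both directions, with 4 of 15 past the threshold. *Hadha* and *Hadhb*, the subunits of the mitochondrial trifunctional protein of fatty acid oxidation, rose from 3100.4 ± 268 to 3829 ± 194 CPM and from 396 ± 15.2 to 515 ± 22.3 CPM (SD, n = 5 each; log2 fold changes 0.30 and 0.38, adjusted p = 0.031 and 0.0024 from edgeR). *Ehhadh*, the bifunctional enzyme of peroxisomal oxidation, fell from 261 ± 42.9 to 144 ± 36.0 CPM (SD, n = 5 each; log2 fold change -0.85, adjusted p = 0.021 from edgeR). None of these 3 overlapped between the genotypes. *Hadhb* was called whichever of the 10 libraries was left out. The call of *Ehhadh* was lost without control replicate 1 or *Stat5* Adipoq replicate 4 (adjusted p up to 0.063), and *Hadha* was called only without control replicate 3 or *Stat5* Adipoq replicate 1 among these fits (adjusted p up to 0.088 in the other 8).

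Among 16 targets of PGC-1 and ERR receptors 2 passed, both higher. Of the 16 fold changes 12 lay above 0, beside 6679 of those of all 13568 tested genes, and the median log2 fold change of the 16 was 0.084. *Cox7a1*, a cytochrome c oxidase subunit of heart, muscle and brown fat, rose from 388 ± 17.3 to 475 ± 44.3 CPM (SD, n = 5 each; log2 fold change 0.29, adjusted p = 0.040 from edgeR). *Atp5b*, the β subunit of ATP synthase, rose from 6648 ± 121 to 7789 ± 373 CPM (SD, n = 5 each; log2 fold change 0.23, adjusted p = 0.032 from edgeR). These calls stood close to the threshold. With 1 library left out, *Cox7a1* was called only without control replicate 3 or *Stat5* Adipoq replicate 1 or 2, and *Atp5b* only without control replicate 3 or *Stat5* Adipoq replicate 1, with adjusted p up to 0.11 and 0.096 in the other fits. The call of *Atp5b* was also lost without the low count filter and with the replicate number as a block (adjusted p = 0.055 and 0.073 from edgeR).

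Other effectors and markers of brown fat had 3 calls among 16 tested. *S100b*, a calcium-binding protein made by brown adipocytes and by Schwann cells, rose from 62.4 ± 11.1 to 131 ± 14.3 CPM (SD, n = 5 each; log2 fold change 1.07, adjusted p = 0.00085 from edgeR). It measured 45.9, 55.8, 70.1, 70.3 and 69.9 CPM in control replicates 1 to 5 and 137, 148, 129, 132 and 109 CPM in *Stat5* Adipoq replicates 1 to 5. The lowest *Stat5* Adipoq library thus lay well above the highest control. All 6 Schwann cell markers had fold changes below 0, and which cells the *S100b* RNA came from was not tested. *Slc29a1*, a nucleoside transporter, rose from 134 ± 5.78 to 172 ± 12.9 CPM, and *Slc27a1*, the fatty acid transport protein FATP1, fell from 337 ± 25.2 to 236 ± 24.1 CPM (SD, n = 5 each; log2 fold changes 0.36 and -0.52, adjusted p = 0.0089 and 0.0050 from edgeR). These 3 genes kept passing whichever of the 10 libraries was removed.

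No gene passed among 6 tested genes of calcium and creatine heat cycles, the routes of heat production that do not need UCP1, where 1 had an unadjusted p below 0.05 in edgeR and DESeq2 called 0. The calcium pump gene *Atp2a2* was 411 ± 43.8 and 416 ± 20.3 CPM and *Alpl*, a phosphatase, 39.7 ± 9.57 and 51.0 ± 16.0 CPM in control and *Stat5* Adipoq BAT (SD, n = 5 each), and the creatine transporter gene *Slc6a8* differed by a log2 fold change of -0.062 (95% limits -0.30 and 0.18). None of 13 tested genes of adrenergic and thyroid inputs passed either, where 5 had an unadjusted p below 0.05 in edgeR and DESeq2 called 1. *Adrb3*, the β3-adrenergic receptor through which noradrenaline acts on brown adipocytes, differed by a log2 fold change of 0.12 (95% limits -0.14 and 0.38). *Thrsp*, a lipogenic gene that responds to thyroid hormone, was 4200.1 ± 201 and 3801 ± 282 CPM, and *Vegfa*, an angiogenic factor, 669 ± 49.6 and 728 ± 63.6 CPM (SD, n = 5 each).

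The promoters of cAMP-responsive members are shown because *Ucp1*, *Dio2* and *Ppargc1a* are the members best known to answer the adrenergic signal. RefSeq promoter windows of GRCm38.p6, from 250 bases before to 50 bases after the start, were found for 8 of the 10 members, and *Cidea* and *Elovl3* have no entry. The windows are chr8:83290098-83290397 on the plus strand for *Ucp1*, chr12:90738989-90739288 on the minus strand for *Dio2* and chr5:51567676-51567975 on the minus strand for *Ppargc1a*, each written 5′ to 3′. Capitals mark the cAMP response element TGACGTCA, its shorter core TGACG on either strand (CGTCA where reversed, and contained in the full element), and the nuclear receptor motif AGGTCA.
Ucp1: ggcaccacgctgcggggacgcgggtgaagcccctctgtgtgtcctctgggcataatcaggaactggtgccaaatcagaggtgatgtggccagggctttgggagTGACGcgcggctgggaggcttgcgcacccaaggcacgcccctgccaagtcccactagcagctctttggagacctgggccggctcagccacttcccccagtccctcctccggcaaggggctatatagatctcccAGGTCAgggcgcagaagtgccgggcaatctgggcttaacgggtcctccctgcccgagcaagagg
Dio2: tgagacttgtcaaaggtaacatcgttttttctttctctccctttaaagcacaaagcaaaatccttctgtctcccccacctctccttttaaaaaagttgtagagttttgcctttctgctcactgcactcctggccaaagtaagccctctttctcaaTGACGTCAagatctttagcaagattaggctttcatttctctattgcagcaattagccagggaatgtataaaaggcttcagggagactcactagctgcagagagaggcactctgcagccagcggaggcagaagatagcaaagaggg
Ppargc1a: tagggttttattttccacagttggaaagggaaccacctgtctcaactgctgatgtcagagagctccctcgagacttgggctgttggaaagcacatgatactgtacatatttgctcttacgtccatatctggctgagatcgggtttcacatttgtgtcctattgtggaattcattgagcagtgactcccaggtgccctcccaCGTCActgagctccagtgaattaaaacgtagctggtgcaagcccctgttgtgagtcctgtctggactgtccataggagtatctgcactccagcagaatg
The full element TGACGTCA occurred in the window of *Dio2*, starting at base 156, and in 1.79% of all 32851 promoter windows searched. The core TGACG was found in *Ucp1* at base 104, in *Ppargc1a* at base 202 on the reverse strand and in *Ppara* at base 29, and in 20.8% of all windows, and AGGTCA in *Ucp1* at base 237 and in 16.3% of all. The STAT5 consensus TTCNNNGAA was present in 8.30% of windows, and the ERR element TCAAGGTCA in 0.42%, but neither was among the letters of the member windows. A match is a description of sequence, and distal enhancers such as that of *Ucp1* lie outside these windows.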

How the data were processed

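BAT of 5 control and 5 *Stat5* Adipoq mice was sequenced as single reads of 50 bases. The authors aligned the reads to GRCm38 with STAR 2.5.0b, counted them over exons with featureCounts 1.5.0-p1 and deposited counts per gene without normalization. The kit marks strand, and the sources used here do not say whether counting used it. For the members, exons of other genes cover at most 2.1% of exon bases on either strand. The deposited table of the authors' comparison gave gene symbols for Entrez identifiers, and its fold changes and p-values, like those of its subsets, were not used. Genes were kept where counts divided by size factors summed to above 45 over the libraries. Genotypes were compared with edgeR 4.0.16 (quasi-likelihood F test, TMM scaling, Benjamini-Hochberg adjustment over all 13568 genes, threshold 0.05), and 95% limits were derived from the F statistic. Exact two-sided permutation tests used log2 CPM (prior count 2) over all 252 assignments of the 10 libraries, with 0.0079 as the smallest possible p. Correlations used 100000 permutations within genotype. Alternatives were DESeq2 1.42.0, limma-voom 3.58.1, DESeq2 size factors, library size alone, other count filters, a replicate block, a muscle score as covariate and leaving out each library. The count tests were tested on simulated data, where DESeq2 made more false calls than edgeR or limma-voom. No pair of libraries of the same genotype agreed within sampling noise.

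The members and gene lists were chosen with earlier results of these data known. Named genes are the members, *Stat5a* and *Stat5b*, every listed gene past the threshold, the most abundant genes of a list up to 3, the most abundant gene of each marker list, and the 3 genes most like *Ucp1*; other paralogues and *Fabp3* were named after their values were seen. Single values of 2 listed genes are not reported here. The lists held paralogues of the members, transcriptional regulators, PPAR targets, PGC-1 and ERR targets, other effectors and markers, calcium and creatine cycles, adrenergic and thyroid inputs, and markers of other cells.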

Additional observations from a re-analysis of the deposited data

Results flagged for a closer look

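Of 72 groups of 5 libraries examined, 9 held a library whose gap to the others was large for the range of its group, where chance flags about 1 in 20 groups, or 3.6 here. Among the members this was *Zic1*, which reached 12.7 CPM in control replicate 1 while the remaining 4 controls had 3.90 to 6.13 CPM. *Hadhb* was 554 CPM in *Stat5* Adipoq replicate 4 against 498 to 509 CPM in the others of that genotype. *Stat5a* was 20.7 CPM in *Stat5* Adipoq replicate 1 against 15.8 to 16.6 CPM. Control replicate 4 had 19514904 counts against 8488129 to 10936218.

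Control replicate 3 stood apart in its skeletal muscle markers, which summed to 5243 CPM compared with 41.5 to 477 CPM in the rest, and in its liver markers, which summed to 92.6 CPM against 1.81 to 2.49 CPM. In the other genotype the liver markers summed to 6.47 CPM in *Stat5* Adipoq replicate 2 against 1.32 to 2.68 CPM. The macrophage markers summed to 88.7 CPM in *Stat5* Adipoq replicate 3 against 110 to 116 CPM, and the Schwann cell markers to 222 CPM in *Stat5* Adipoq replicate 1 against 123 to 150.2 CPM.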

How the results depend on the processing

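No member was called in any of the 18 alternatives, in which the lowest adjusted p was 0.14, for *Dio2* without control replicate 5. All genes called numbered 368, 660 with DESeq2's Wald test and from 185 to 443 with single libraries left out, and the other brown fat genes called, 13, ranged from 7 to 18 there. Same-numbered libraries, after removal of the mean of each genotype, had correlations between -0.23 and 0.089. The best match of any control with a *Stat5* Adipoq library reached only 0.16, so this check cannot tell whether replicate numbers pair the mice. With the number as a block 273 genes, 0 members and 14 other brown fat genes were called, and the log2 fold change of *Elovl3* was 0.057. Members near 0 changed sign, which for *Elovl3* gave 0.067 with limma-voom. With the muscle score as a covariate the log2 fold changes were -0.085 for *Prdm16*, 0.069 for *Esrra*, 0.13 for *Esrrg* and 0.28 for *Elovl3*, and the cause was not tested. Leaving out 1 library gave -0.048 to 0.19 for *Prdm16*, -0.073 to 0.061 for *Esrra*, -0.17 to 0.025 for *Esrrg*, -0.25 to 0.41 for *Elovl3* and 0.077 to 0.73 for *Zic1*. The r of *Ucp1* and *Elovl3*, recomputed without each library after the values were seen, ranged from 0.937 to 0.979. Depth limits *Zic1* most, with 33 counts in its lowest library.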
